A study of Mus musculus with 13 samples.

Results

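The response of the ileum to vancomycin was set against the response of the colon, gene by gene. For each gene the vancomycin change in a tissue was the mean log2 expression with vancomycin minus the mean without antibiotic, so that a change of 1 is nominally a doubling. The tissue difference was the ileal change minus the colonic change. It is negative where the change was lower in the ileum than in the colon and positive where it was higher. It was computed on all 13 arrays for the 19572 probe sets, of 28846 in all, that the array annotation pairs with exactly 1 gene symbol. Of these, 37 passed in limma at an adjusted p under 0.05 (0.189%), 31 with a negative (0.158%) and 6 with a positive difference (0.0307%).

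The arrays came from female FVB mice, all of which carried a HER2-expressing mammary carcinoma (the human receptor tyrosine kinase), so no group was free of tumour. From the age of 4 weeks, the treated mice received 200 mg/L vancomycin in their drinking water, and the control mice received no antibiotic. They were killed with tumours of 150 mm3, at a time the labels give as 9 weeks without saying from which start. Whole washed colon and ileum gave 4 colons without antibiotic, 3 colons with vancomycin, 3 ilea without antibiotic and 3 ilea with vancomycin. The labels do not say that each array came from a separate mouse, and the p-values therefore measure the spread between arrays alone, part of which may be technical. Label numbers 1, 2, 3, 11, 13 and 14 occur in both tissues, and the labels do not say whether 1 number marks 1 mouse. With the number as a fixed term, 21 of the 37 differences remained past the threshold. Precision is limited by the number of arrays.

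Vancomycin is a glycopeptide that blocks cell wall synthesis in Gram-positive bacteria, is poorly absorbed and so acts mainly within the gut. The gut epithelium senses bacteria through pattern recognition receptors and through cytokines such as interleukin-22 and interferon gamma. It answers with oxidases, antibacterial lectins, antigen presentation genes and interferon-inducible GTPases. The ileum holds many lymphocytes within its epithelium and recovers bile acids, which induce the hormone Fgf15 there. The colon carries the densest bacterial community and a thick mucus layer made by goblet cells.

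The tissue labels were checked on defining genes. Car1, a carbonic anhydrase of surface colonocytes, read 16.05 to 17.42 in the colons and 6.4 to 8.38 in the ilea, and Sis, sucrase-isomaltase of enterocytes, read 14.67 to 15.47 in the ilea and 6.03 to 7.16 in the colons. Array medians lay between 7.98 and 8.14. The vancomycin ileum numbered 11 correlated least with its group (0.977) and stood out in lists of cell type markers. Its mean over the B cell genes was 10.52, where the remaining ilea had 7.71 to 8.46, and over the smooth muscle genes 13.12, where they had 11.64 to 12.21. Without it all 37 differences remained past the threshold and 84 passed in all, 64 negative and 20 positive. Without both arrays numbered 11, 36 of the 37 remained and 157 passed, 88 negative and 69 positive, so the predominance of negative differences rests in part on these arrays. Means over pancreatic acinar genes were 9.38 in the colon without antibiotic numbered 1 and 8.94 in the vancomycin colon numbered 11, against 7.37 to 7.57 in the other colons.

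Most of the 37 genes past the threshold fell in the ileum and moved little in the colon. The 31 genes with a negative difference had a median ileal change of -2.21 and a median colonic change of 0.16. In all 31 the ileal groups did not overlap (16.9% of all probe sets), and 30 also passed in limma as an ileal change alone (0.536% of all probe sets), Mcpt1 being the exception. The colonic change of these 31 was positive in 24 and negative in 7, was under 0.5 in size in 26, and reached 1.11 at most, in Mcpt1. Their colonic groups did not overlap in 6 of 31 (12.3% of all probe sets). The 6 genes with a positive difference had a lower mean with vancomycin in the colon in all 6 and a higher one in the ileum in 5, with Ly6g6c at 0.00. Only Ly6g6c among the 37 also passed as a colonic change, of 2 probe sets that did so in all (0.0102%). At an unadjusted p under 0.05, however, more probe sets differed in the colon (3107) than in the ileum (1977). The number that passed in the colon was 217 without the colon numbered 3, 109 without the vancomycin colon numbered 11, 49 without the vancomycin ileum numbered 11 and 695 without both arrays numbered 11. Whole tissue was measured, so fewer cells of a type and less RNA per cell cannot be told apart in any of these values.

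**Figure D1:**
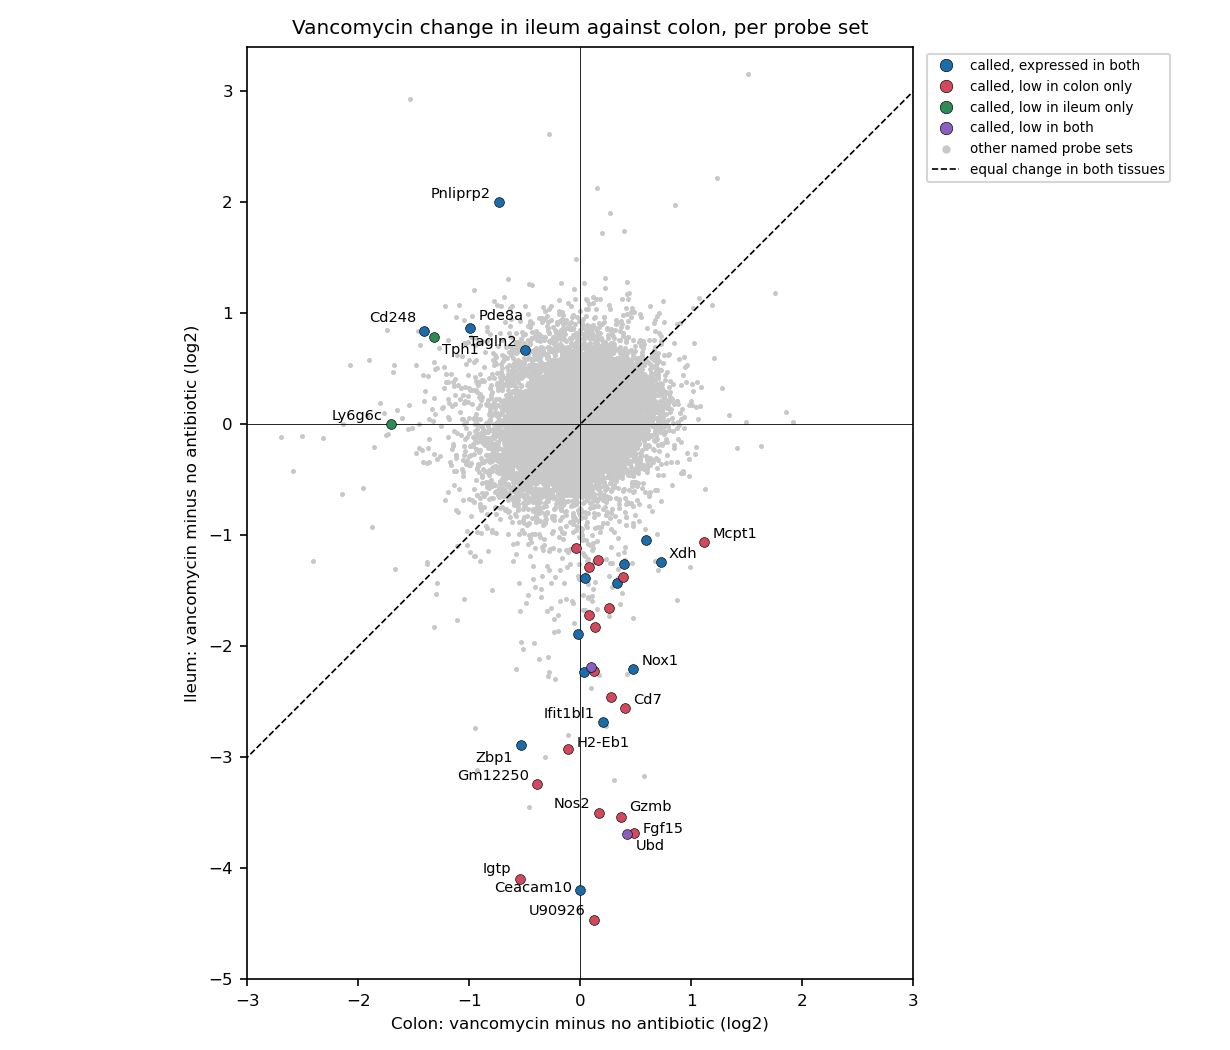
Vancomycin change in the ileum (vertical axis, log2) against that in the colon (horizontal axis, log2) for 19572 probe sets, with the 37 past the threshold coloured by their level without antibiotic and the dashed line marking an equal change. The 31 genes with a negative difference lie below the line within 1.11 of 0 on the colonic axis, and the 6 with a positive difference lie above it on the left.

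To separate genes that start low in a tissue from genes expressed in both, the means without antibiotic were used. A gene was taken as low in a tissue where its mean there was below the median of all 19572 probe sets, 8.03 in the colon and 7.97 in the ileum. By this rule 9223 probe sets were expressed in both tissues, 567 were low in the colon only, 569 low in the ileum only and 9213 low in both. The same means enter the tissue difference, so the counts per class are a description without a test. A gene low in the colon may have little room for a fall to register there. The part of this limit in the small colonic changes was not tested. Of the 37 genes, 15 were expressed in both (0.163% of the class, 11 negative and 4 positive), 18 low in the colon only (3.17%, all negative), 2 low in the ileum only (0.351%, both positive) and 2 low in both (0.0217%, both negative). The median tissue difference was -0.25 over all 567 probe sets low in the colon only, 0.34 over those low in the ileum only and 0.03 over those expressed in both. With the class taken from all arrays of a tissue, vancomycin included, the median of the class low in the colon was -0.09 and 15 of its probe sets passed. Just below the colonic boundary stood H2-Eb1 (7.98) and just above it Mbl2 (8.2), and at the ileal boundary stood Ubd (7.87, low) and Pde8a (7.97, not low).

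The 11 genes expressed in both tissues with a negative difference included epithelial genes that respond to bacteria. Ceacam10, a member of the carcinoembryonic antigen family, read 12.69, 12.49 and 12.47 in the ilea without antibiotic and 8.43, 8.71 and 7.92 in those with vancomycin. Its colons read 14.87, 14.14, 14.17 and 14.61 without antibiotic and 14.56, 14.63 and 14.14 with vancomycin. The ileal groups lay far apart, while the colonic groups overlapped and had nearly the same mean. Ceacam10 fell by 4.20 ± 0.23 (SE) in the ileum, differed by 0.00 ± 0.22 in the colon, and had a tissue difference of -4.19 ± 0.32 (limma, adjusted p = 6.81e-05).

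Nox1 encodes the catalytic subunit of the superoxide-forming NADPH oxidase of colonic epithelium. Its ilea read 8.68, 8.29 and 8.64 without antibiotic and 6.25, 6.39 and 6.34 with vancomycin, without overlap. In colons without antibiotic Nox1 read 10.76, 11.33, 11.46 and 12.11, and with vancomycin 11.22, 12.60 and 11.86, which overlap. The difference was -2.69 ± 0.45 (limma, adjusted p = 0.0339), from a fall of 2.21 in the ileum and a colonic change of 0.48. Both genes were already higher in the colon without antibiotic, Ceacam10 by 1.90 and Nox1 by 2.88, and with vancomycin colon exceeded ileum by 6.09 and 5.57. Among the partners of Nox1, listed after its values were seen, the activator Noxa1 stood at -1.12 (adjusted p = 0.459) and the shared membrane subunit Cyba at -0.78 (0.538). The organizer Noxo1 stood at -0.08 and the GTPase Rac1 at 0.02, and none of these 4 passed in limma.

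Genes of antigen presentation and of the response to interferon formed the next group. Tap1, a chain of the transporter that carries peptides to MHC class I molecules, read 13.16, 12.74 and 13.19 in ilea without antibiotic and 11.24, 10.29 and 10.87 with vancomycin. Colons read 10.14, 9.94, 10.12 and 10.38 without antibiotic and 10.24, 10.02 and 10.28 with vancomycin. The ileum thus moved from well above every colon to 0.62 above the vancomycin colons, with no overlap between its groups, while the colonic groups overlapped. The difference was -2.27 ± 0.30 (limma, adjusted p = 0.0101). Of 6 genes of the same machinery, listed after values were seen, all 6 were negative and Tap1 alone passed. The immunoproteasome subunits stood at -1.55 ± 0.31 (Psmb9, limma, adjusted p = 0.0806), -1.52 (Psmb8, 0.17) and -0.38 (Psmb10, 0.725). The loading factor tapasin, Tapbp, stood at -1.08 (0.198) and Tap2 at -0.65 (0.381). Psmb9 fell in the ileum alone by 1.97.

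Zbp1, a sensor of nucleic acids in the Z form, read 11.33, 10 and 11.01 in ilea without antibiotic and 8.06, 7.44 and 8.17 with vancomycin. Its colons read 8.67 to 9.06 without antibiotic and 7.92 to 8.69 with vancomycin, overlapping. The ileal fall of 2.89 stood beside a colonic change of -0.54, so that the difference was -2.35 ± 0.42 (limma, adjusted p = 0.0409). Ifit1bl1, of the interferon-induced IFIT family, had colonic values in the range of the ileal ones at the start. Ileal values went from 14.13, 13.13 and 13.63 to 11.02, 10.65 and 11.17. Colonic values ran from 12.60 to 13.79 without antibiotic and from 12.69 to 14.13 with vancomycin. Only the ileal groups of Ifit1bl1 lay apart, and its difference was -2.89 ± 0.52 (adjusted p = 0.0409). The IFIT genes include close copies, so the share of Ifit1bl1 in its probe set is uncertain.

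The remaining genes of this class had several roles. Xdh, xanthine dehydrogenase, which forms uric acid, read 15.47, 15.21 and 15.81 in ilea without antibiotic and 13.82, 14.29 and 14.66 with vancomycin. Its colons read 11.84 to 12.02 without antibiotic and 12.19, 12.56 and 13.22 with vancomycin. The groups did not overlap in either tissue and moved in opposite directions, by -1.24 in the ileum and 0.72 in the colon, the latter not past the threshold (adjusted p = 0.19). The difference of Xdh was -1.96 ± 0.35 (limma, adjusted p = 0.0409).

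Zc3h12a, the RNase Regnase-1 that degrades inflammatory transcripts, went from 12.13, 11.46 and 11.76 to 9.98, 9.98 and 9.72 in the ileum. Its colons read 10.12 to 10.84 without antibiotic and 10.33 to 10.88 with vancomycin, so vancomycin ilea fell below every colon. The difference was -1.87 ± 0.30 (limma, adjusted p = 0.0257). Ly75, the endocytic receptor DEC-205, had a difference of -1.77 ± 0.26 (adjusted p = 0.015), with ileal values of 10.83 to 11.24 without and 9.38 to 9.87 with vancomycin. Mbl2, the mannose-binding lectin C, had -1.43 ± 0.21 (adjusted p = 0.0139), with ilea moving from 9.33 to 9.86 down to 8.21 to 8.35, close to its colons (8.06 to 8.32).

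The gasdermin C genes encode pore-forming proteins of epithelial cells. Gsdmc read 9.70, 9.85 and 9.95 in ilea without antibiotic and 8.76, 8.14 and 8.81 with vancomycin, against 11.56 to 12.34 and 12.14 to 12.42 in the colons. Gsdmc3 read 12.51, 12.21 and 12.18 in ilea without antibiotic, 11.70, 11.04 and 11.02 with vancomycin, and in colons 14.70 to 15.25 and 15.38 to 15.78. Ileal groups of both genes lay apart, as did the colonic groups of Gsdmc3, in which vancomycin colons were higher. The differences were -1.65 ± 0.29 for Gsdmc (limma, adjusted p = 0.0409) and -1.64 ± 0.28 for Gsdmc3 (0.0353). Gsdmc2 (-1.25, adjusted p = 0.0559) and Gsdmc4 (-1.15, 0.137) were negative too and did not pass. These genes are near-identical copies, so their probe sets may share signal and are not separate observations. Like Ceacam10 and Nox1, Gsdmc and Gsdmc3 were higher in the colon at the start, which makes 4 of 11 genes whose gap between tissues widened with vancomycin.

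**Figure D2:**
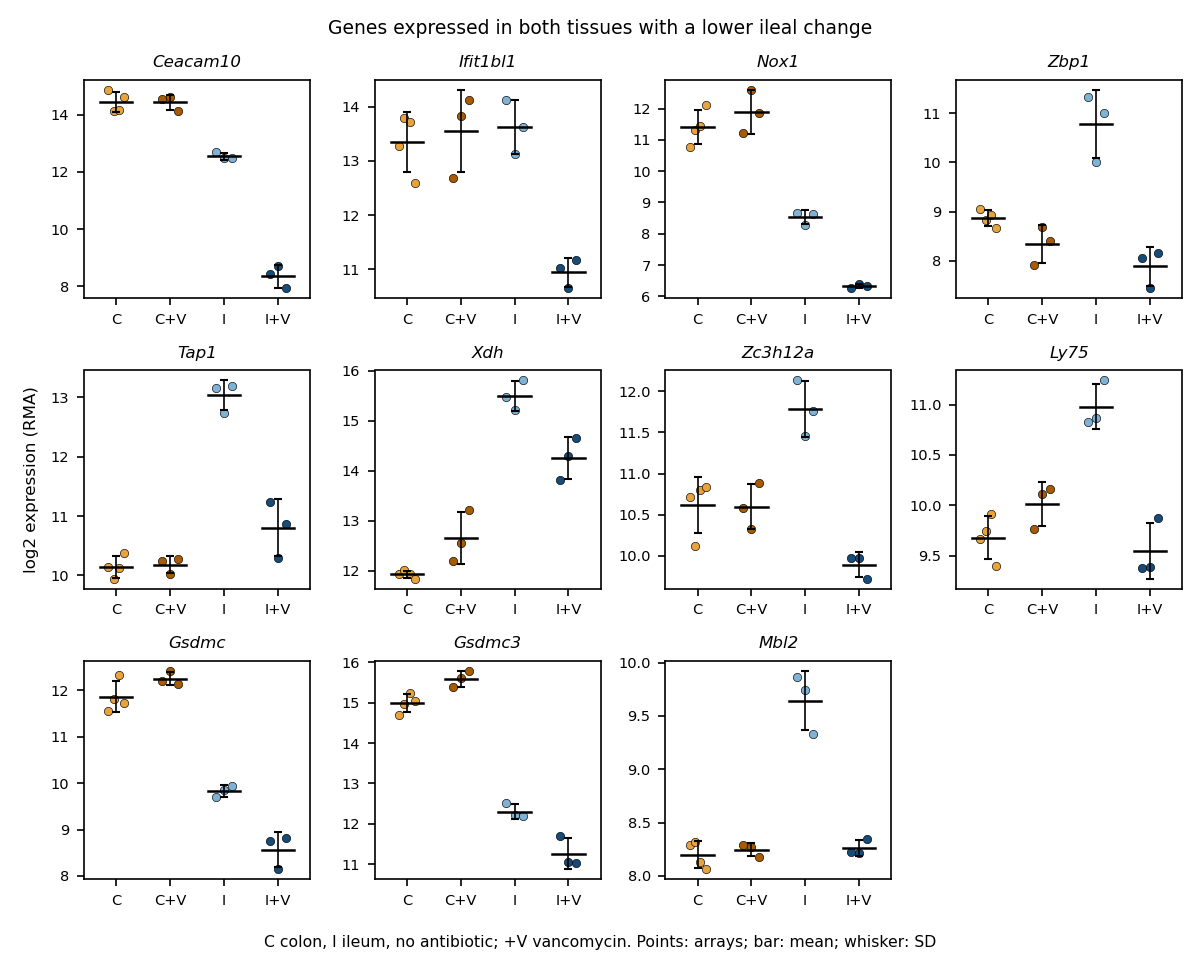
Log2 expression on each array for the 11 genes expressed in both tissues with a negative difference, in colon (C) and ileum (I) without antibiotic and with vancomycin (+V), with bars for means and whiskers for the SD. In every panel the vancomycin ilea lie below the ilea without antibiotic, while the colonic groups are close or, in Xdh and Gsdmc3, higher with vancomycin.

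The 18 genes low in the colon only started at a higher mean in the ileum than in the colon. All 18 fell in the ileum, and 17 passed in limma as an ileal change alone, Mcpt1 being the exception (-1.06, adjusted p = 0.129). In 16 of 18 the colonic mean without antibiotic was still below the mean of the vancomycin ilea, U90926 and Nudt5 being the exceptions, and the gap between tissues narrowed in 15 and changed sign in 3.

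Fgf15, a hormone that bile acids induce in the ileum and that acts on the liver, read 8.06, 10.45 and 10.56 in ilea without antibiotic and 5.64, 6.54 and 5.85 with vancomycin. Its colons read 4.6 to 5.10 without antibiotic and 5.16 to 5.43 with vancomycin. The groups did not overlap in either tissue, and the ilea without antibiotic varied far more than the colons. The difference was -4.17 ± 0.66 (limma, adjusted p = 0.0241). With a separate spread for each tissue it did not pass (adjusted p = 0.0536). Of the 17 measured genes of bile acid handling only Fgf15 passed. The list median was -0.19, with -0.45 without the vancomycin colon numbered 11 and -0.02 without the vancomycin ileum numbered 11. Nr0b2, the repressor SHP, stood at -1.90 (adjusted p = 0.342), Abcc3, a bile salt exporter, at -1.05 (0.241), and the bile acid transporter Slc10a2 at 0.86 (0.681).

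Nos2, the inducible nitric oxide synthase, read 12.52, 12.76 and 12.35 in ilea without antibiotic and 8.42, 9.43 and 9.28 with vancomycin. Colons read 7.14, 6.97, 8.16 and 8.18 without antibiotic and 7.28, 8.41 and 7.65 with vancomycin. The ileal groups lay far apart, with the lowest vancomycin ileum just above the highest colon, and the colonic groups overlapped. The difference was -3.67 ± 0.51 (limma, adjusted p = 0.0108). U90926 had the most negative difference, -4.59 ± 0.64 (adjusted p = 0.0108), with ileal values of 11.47, 8.94 and 10.45 that went to 5.56, 5.65 and 6.26, the level of the colons (5.54 to 6.53).

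Several of the 18 are genes of lymphocytes with cytotoxic function or a place within the epithelium. The list of such genes held 5 that passed, Gzmb, Cd7, Nkg7, Cd244a and Itgae, and Cd96 was set beside them after its values were seen. Gzmb, granzyme B, read 12.79, 12.47 and 11.98 in ilea without antibiotic and 8.24, 8.23 and 10.14 with vancomycin, and 5.96 to 6.49 and 6.20 to 7.14 in the colons. Cd7, a receptor on T cells and NK cells, read 12.21, 12.20 and 12.06 in ilea without antibiotic and 9.49, 8.95 and 10.35 with vancomycin, and 7.17 to 7.38 and 7.53 to 7.98 in the colons. The vancomycin ileum numbered 14 was the highest of its group for both genes, and every vancomycin ileum stayed above every colon. Their differences were -3.91 ± 0.58 (limma, adjusted p = 0.0154) and -2.96 ± 0.36 (0.00687). Colonic groups overlapped for Gzmb and not for Cd7, where vancomycin colons were higher by 0.40.

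The granule protein gene Nkg7 had a difference of -1.96 ± 0.26 (limma, adjusted p = 0.0101) and Cd244a, an NK cell receptor, -1.92 ± 0.24 (0.00766). Itgae, the integrin chain CD103 that binds E-cadherin on epithelial cells, had -1.76 ± 0.27 (0.0182), and Cd96, a receptor of T and NK cells, -1.38 ± 0.24 (0.0409). In none of these 4 did the ileal groups overlap, and in all 4 the colonic groups did. The T cell receptor genes Cd3g (-1.74, adjusted p = 0.32) and Cd3e (-1.37, 0.204) and the co-receptor gene Cd8a (-1.40, 0.321) did not pass. None of the 13 measured genes of the T cell list passed, and 11 of 13 were negative (median -0.30, and -0.66 and -0.14 without the vancomycin ilea numbered 11 and 14 in turn), 4 of them at an unadjusted p under 0.05. The T cell list mean was 8.66 to 9.04 in ilea without antibiotic and 9.04, 8.04 and 8.18 in the vancomycin ilea, the highest being number 11, and the part of T cell number in these differences was not tested.

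Igtp and Gm12250, the latter also called Irgb10, encode immunity-related GTPases, which interferon gamma induces and which attack vacuoles that hold microbes. Igtp read 12.74, 10.47 and 12.03 in ilea without antibiotic and 7.85, 7.10 and 8.0 with vancomycin. Gm12250 read 11.21, 9.49 and 10.86, and then 7.56, 6.64 and 7.63. In the colons Igtp ran from 6.82 to 7.46 and from 6.26 to 7.15, and Gm12250 from 6.68 to 7.31 and from 6.33 to 6.64. The ileal groups lay apart in both genes, the ileum without antibiotic numbered 2 was the lowest of its group in both, and colonic means were 0.55 and 0.39 lower with vancomycin, without overlap in Gm12250. The differences were -3.55 ± 0.61 (limma, adjusted p = 0.0368) and -2.85 ± 0.51 (0.0409). With a separate spread for each tissue Gm12250 did not pass (0.0564). Of 6 measured members of this GTPase family, listed after values were seen, all 6 were negative and these 2 passed, with Tgtp2 at -2.69 (0.306), Iigp1 at -1.81 (0.431), Irgm2 at -1.63 (0.146) and Irgm1 at -1.09 (0.472).

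The promoters of the genes that passed were read for 2 motifs of the interferon response, from 250 bases before to 50 bases after each start site in RefSeq (GRCm38.p6). Of the 37 genes, 26 had such a window, with 30 windows in all. The interferon-stimulated response element (ISRE, searched as GAAANNGAAA on both strands) was found in 4 of 26 genes (15.4%), against 3.94% of 15691 genes with a window and 3.44% of all 32851 windows. The gamma-activated site (GAS, searched as TTCNNNGAA, which reads the same on both strands) was found in 5 of 26 (19.2%), against 9.02% of genes and 8.30% of windows. In all, 7 genes had either motif and 19 neither. The 4 genes with an ISRE are shown because all 4 fell in the ileum and carry the motif, 5' to 3' along the gene, with ISRE and GAS matches in capitals. For Ifit1bl1, which has 2 windows with an ISRE, the window with the match nearer its start site is shown.
Igtp promoter, chr11:58199306-58199605, plus strand: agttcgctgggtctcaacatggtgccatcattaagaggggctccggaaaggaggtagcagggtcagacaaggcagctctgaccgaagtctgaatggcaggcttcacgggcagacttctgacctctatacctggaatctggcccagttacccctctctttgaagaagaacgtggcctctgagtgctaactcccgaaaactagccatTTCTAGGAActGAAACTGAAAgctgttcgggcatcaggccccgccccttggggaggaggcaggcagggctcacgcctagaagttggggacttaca
Gm12250 promoter, chr11:58183593-58183892, plus strand: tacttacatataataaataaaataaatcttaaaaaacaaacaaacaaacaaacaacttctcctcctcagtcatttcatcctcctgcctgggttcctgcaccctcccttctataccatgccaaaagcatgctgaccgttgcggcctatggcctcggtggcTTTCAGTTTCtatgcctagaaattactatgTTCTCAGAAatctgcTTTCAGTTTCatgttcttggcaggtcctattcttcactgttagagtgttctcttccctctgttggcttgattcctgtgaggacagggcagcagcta
Ifit1bl1 promoter, chr19:34599378-34599677, minus strand: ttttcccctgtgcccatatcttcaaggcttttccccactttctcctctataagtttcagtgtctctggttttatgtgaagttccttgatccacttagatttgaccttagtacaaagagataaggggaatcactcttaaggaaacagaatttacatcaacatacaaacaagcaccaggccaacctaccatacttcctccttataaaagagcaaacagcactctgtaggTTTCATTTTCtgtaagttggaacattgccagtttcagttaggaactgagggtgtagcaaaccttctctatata
Apol7e promoter, chr15:77698639-77698938, plus strand: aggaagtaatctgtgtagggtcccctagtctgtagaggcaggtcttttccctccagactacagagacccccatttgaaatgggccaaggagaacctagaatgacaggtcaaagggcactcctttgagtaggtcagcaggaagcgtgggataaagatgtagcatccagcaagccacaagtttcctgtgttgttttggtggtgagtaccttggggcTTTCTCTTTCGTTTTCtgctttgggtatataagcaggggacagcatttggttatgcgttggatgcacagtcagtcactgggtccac
Counted from the start site, the ISRE match of Igtp begins at -34 and its GAS match at -45. Gm12250 holds ISRE matches at -91 and -46, with a GAS match at -61 between them. Ifit1bl1 holds an ISRE match at -23, and Apol7e holds overlapping ISRE matches at -36 and -30. GAS matches without an ISRE stood in Gzmb, Nkg7 and Cd96. These matches describe letters in a window and show no binding.

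Apol7e, of the apolipoprotein L family, went from 8.71, 8.63 and 9.00 to 7.56, 7.27 and 7.65 in the ileum and read 6.53 to 6.81 over all colons. Its difference was -1.36 ± 0.20 (limma, adjusted p = 0.0154). Batf2, a transcription factor of the AP-1 family, had a difference of -1.80 ± 0.29 (0.0255), with ileal values of 9.21 to 9.93 without and 7.63 to 8.12 with vancomycin. H2-Eb1, a chain of MHC class II, read 11.78, 11.47 and 12.07 in ilea without antibiotic and 9.73, 8.55 and 8.25 with vancomycin, against 7.70 to 8.13 and 7.47 to 8.12 in the colons. The vancomycin ileum numbered 11, with its high B cell list mean, was the highest of its group. The difference of H2-Eb1 was -2.82 ± 0.43 (0.0165), and -3.27 without that array.

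Barx2, a homeobox transcription factor, read 10.06, 11.30 and 10.60 in ilea without antibiotic and 8.11, 7.90 and 8.57 with vancomycin, and its difference was -2.74 ± 0.38 (limma, adjusted p = 0.0108). Exoc3l4, related to a subunit of the exocyst, had -2.35 ± 0.42 (0.0409). Nudt5, a hydrolase of ADP-sugars, had the smallest difference of the 37, -1.08 ± 0.19 (0.0379), with tight ileal groups of 8.78 to 8.88 and 7.63 to 7.83. Colonic groups of these 3 genes overlapped.

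**Figure D3:**
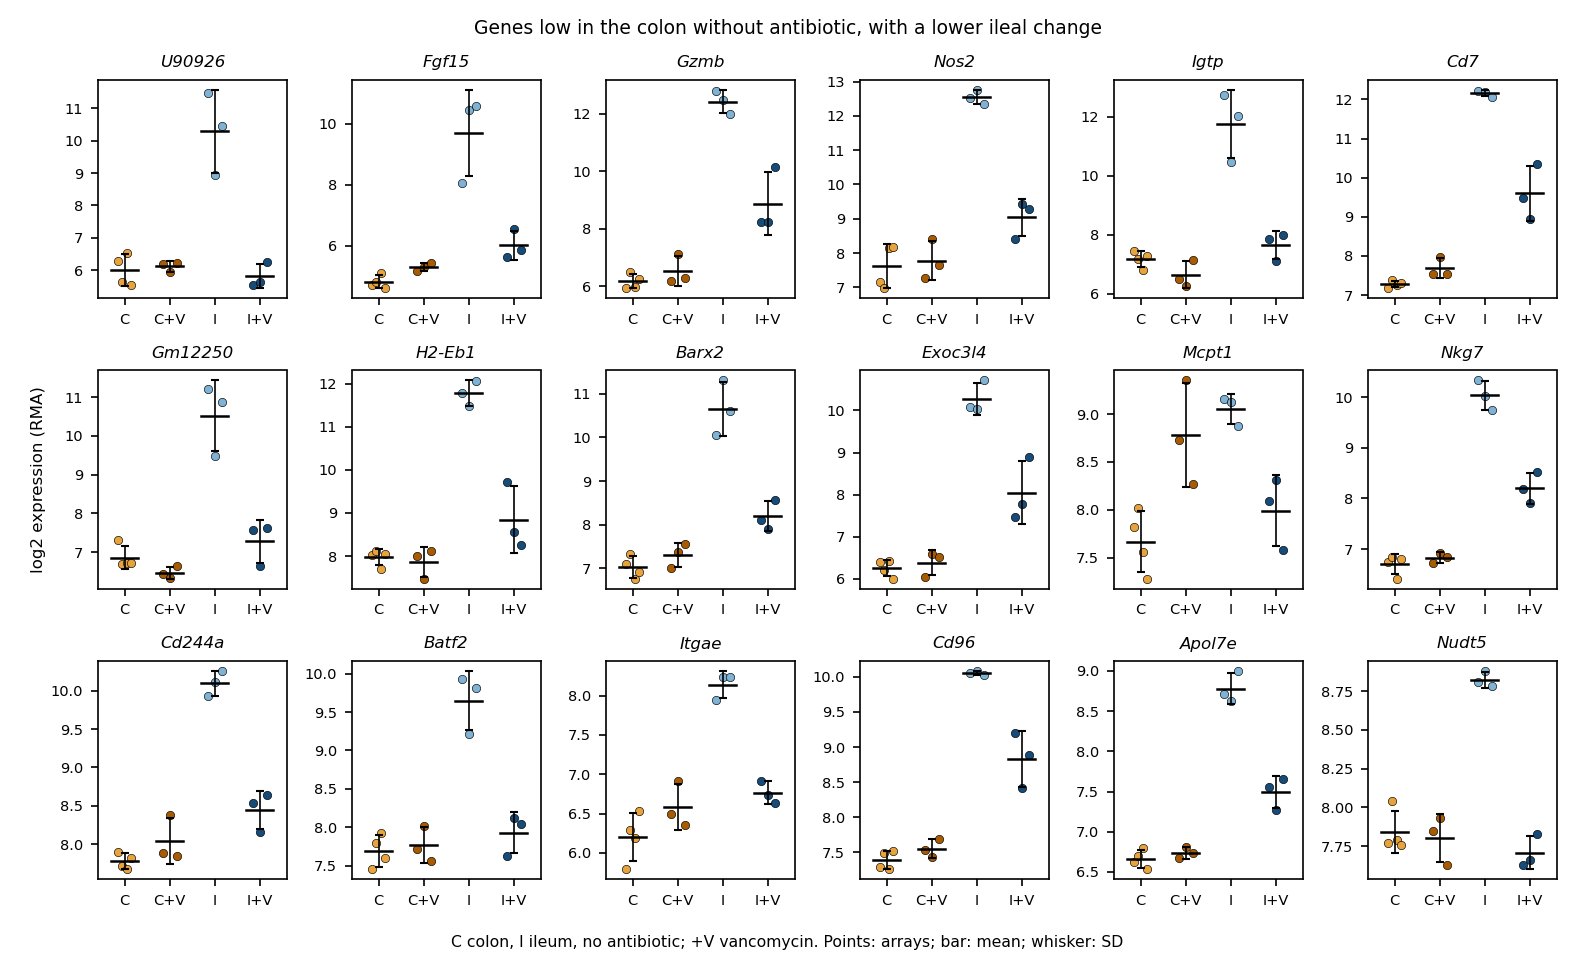
Log2 expression on each array for the 18 genes low in the colon without antibiotic, grouped as colon (C) and ileum (I) without and with vancomycin (+V), with bars for means and whiskers for the SD. The ilea without antibiotic stand above all other arrays in each panel except that of Mcpt1, where one vancomycin colon reaches higher, and in 10 of the 18 panels every vancomycin ileum stays above every colon.

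Ubd and Gml were low in both tissues by the rule, yet the ileum without antibiotic stood above the colon. Ubd, the ubiquitin-like modifier FAT10, read 8.32, 6.93 and 8.35 in ilea without antibiotic and 4.38, 4.06 and 4.09 with vancomycin, and 4.23 to 4.52 and 4.26 to 5.20 in the colons. Vancomycin ilea thus reached the level of the colons. Its difference was -4.11 ± 0.45 (limma, adjusted p = 0.00304). Gml, a membrane-anchored protein of the Ly6 family, had -2.28 ± 0.32 (0.0108), with ileal values of 7.67 to 8.08 without and 5.26 to 5.91 with vancomycin.

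The 6 genes with a positive difference were led by Pnliprp2, a lipase related to pancreatic lipase. It read 10.13, 11.25 and 11.08 in ilea without antibiotic and 13.53, 12.47 and 12.46 with vancomycin. In colons it read 8.70, 8.85, 8.89 and 7.93 without antibiotic and 8.34, 7.75 and 7.48 with vancomycin. Only its ileal groups lay apart, and the vancomycin ileum numbered 11 was the highest array. The difference was 2.74 ± 0.50 (limma, adjusted p = 0.0442), with a rise of 2.0 in the ileum, and 2.38 without that array (adjusted p = 0.0363). Pnliprp2 passed in 4 of the 13 fits with 1 array left out, with an adjusted p of up to 0.172 without the vancomycin colon numbered 14. The Paneth cell list mean was 13.34 in the vancomycin ileum numbered 11 and 11.75 to 12.58 in the other ilea. Its part in the result was not tested.

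Tph1, the enzyme of the first step to serotonin in the gut, read 10.29, 10.27, 9.81 and 10.70 in colons without antibiotic and 9.34, 8.92 and 8.59 with vancomycin. Its ilea read 7.5, 6.96 and 7.43 without antibiotic and 8.12, 8.24 and 7.89 with vancomycin. The groups lay apart in both tissues, in opposite directions. The colonic change of -1.32 ± 0.22 (adjusted p = 0.0968) and the ileal change of 0.79 ± 0.24 (0.233) did not pass alone, while their difference of 2.10 ± 0.33 did (limma, adjusted p = 0.0184). Of the genes related to serotonin, listed after values were seen, the granule protein genes Chgb (1.23, 0.138) and Chga (0.84, 0.497) were positive and the serotonin transporter Slc6a4 was at -0.90 (0.491), none of them past the threshold. The enteroendocrine list mean was 9.37 to 9.75 in colons without antibiotic and 8.79 to 9.45 with vancomycin, and 8.78 to 8.87 and 8.99 to 9.14 in the ilea.

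Cd248, endosialin of pericytes and fibroblasts, read 10.09, 9.94, 9.85 and 10.32 in colons without antibiotic and 9.07, 7.96 and 8.90 with vancomycin, and 8.07 to 8.39 and 8.52 to 9.66 in the ilea. Its difference was 2.25 ± 0.40 (limma, adjusted p = 0.0409), and 1.97 without the vancomycin ileum numbered 11 (0.0355), which was the highest of its group. The fibroblast list mean was 10.44 in that array, 9.40 to 9.62 in the other ilea, 10.17 to 10.56 in colons without antibiotic and 9.91 to 10.37 in vancomycin colons, and its part in the result was not tested. Pde8a, a cyclic AMP phosphodiesterase, had a difference of 1.86 ± 0.32 (0.0405), with colons of 9.56 to 10.56 and 8.60 to 9.48 and ilea of 7.95 to 8.01 and 8.78 to 8.91. Tagln2, an actin-binding protein, had 1.17 ± 0.20 (0.0395), with colons of 13.15 to 13.47 and 12.72 to 12.94 and ilea of 12.35 to 12.37 and 12.75 to 13.18. In these 3 genes the groups lay apart in both tissues.

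Ly6g6c, of the Ly6 family, was the one gene of the 37 whose fall in the colon passed by itself. Its colons read 10, 9.19, 9.50 and 9.03 without antibiotic and 7.57, 7.73 and 7.88 with vancomycin, while its ilea read 7.53, 7.55 and 7.36 without antibiotic and 7.19, 7.45 and 7.81 with vancomycin. The vancomycin colons thus came down to the level of the ilea. Its difference was 1.71 ± 0.31 (limma, adjusted p = 0.0442). Fam162b, the only other gene that passed in the colon, fell there by 0.95 and had a difference of 0.84 ± 0.18 that did not pass (0.11).

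Both tissues moved by at least 0.5 and in opposite directions in 7 of the 37 genes. These were Xdh, Gsdmc3, Pnliprp2, Cd248, Pde8a, Tph1 and Mcpt1. Mcpt1, a chymase of mucosal mast cells, read 7.82, 8.02, 7.56 and 7.28 in colons without antibiotic and 8.73, 9.35 and 8.27 with vancomycin. Its ilea read 9.16, 9.13 and 8.87 without antibiotic and 8.09, 8.31 and 7.58 with vancomycin. Ileum exceeded colon without antibiotic, and colon exceeded ileum with vancomycin, with no overlap between the groups of either tissue. The difference was -2.17 ± 0.37 (limma, adjusted p = 0.0349), although neither the colonic change of 1.11 (0.102) nor the ileal change of -1.06 (0.129) passed alone. No other gene of the 11 measured for mast cells passed: the related Mcpt2 stood at -0.57 (0.497) and Cpa3, mast cell carboxypeptidase, at 0.20 (0.942). The mast cell list mean was 7.15 to 7.43 and 7.10 to 7.34 in the colons and 6.74 to 6.94 and 6.72 to 6.86 in the ilea.

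**Figure D4:**
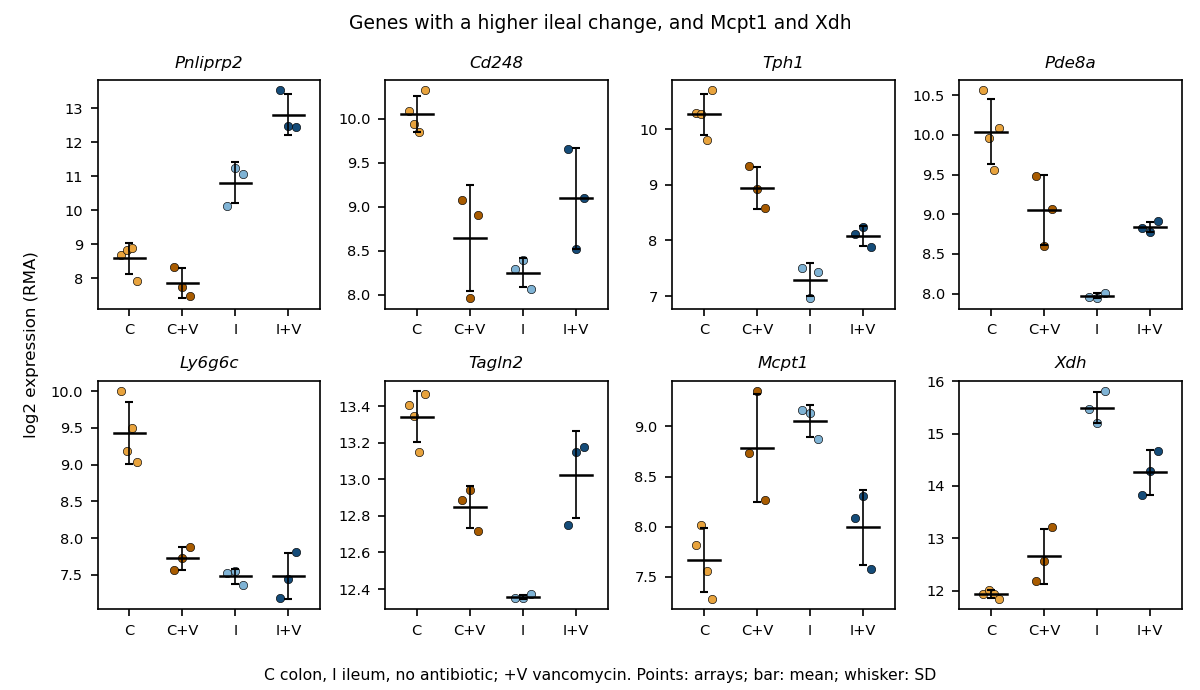
Log2 expression on each array for the 6 genes with a positive difference and for Mcpt1 and Xdh, in colon (C) and ileum (I) without antibiotic and with vancomycin (+V), with bars for means and whiskers for the SD. Colonic and ileal means come closer in Tph1, Pde8a and Ly6g6c, move apart in Pnliprp2, and cross in Cd248, Tagln2 and Mcpt1.

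A difference that missed the threshold does not show an equal response. Of the 105 genes that passed in the ileum, 74 did not pass as a tissue difference. Of these 74, 65 had fallen, and over the 65 the median ileal change was -1.31 and the median colonic change -0.10. Of the 65, 41 were expressed in both tissues. For only 4 of the 105 did the 95% interval of the difference lie wholly between -1 and 1. Over all probe sets 14232 (72.7%) had such an interval, with a median SE of 0.26 and a median half-width of 0.56, whereas the 37 differences that passed were 1.08 to 4.59 in size. Without adjustment 1567 probe sets had p under 0.05, 761 negative and 806 positive, of which 5% of all would be 979. Nearest outside the threshold stood the chemokine gene Ccl5 (-0.91, adjusted p = 0.0517), then Il7, a lymphocyte growth factor (-1.54, 0.0537), and Apol10a, of the apolipoprotein L family (-1.17, 0.0537), then Gsdmc2 and the complement gene C2 (-1.98, 0.0559), and nearest inside it Ly6g6c and Pnliprp2.

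Some genes moved by at least 0.5 the same way in both tissues, with the 95% interval of the difference inside -1 to 1. Predicted genes aside, 131 genes met this rule, so their likeness was set by the choice. Bcl3, a regulator of NF-kappaB, read 9.12 to 9.56 in colons and 9.57 to 10.21 in ilea without antibiotic, and 7.92 to 8.92 and 8.51 to 9.02 with vancomycin. Its groups lay apart in both tissues, with changes of -1.0 in the colon and -1.15 in the ileum and a difference of -0.15 (95% interval -0.89 to 0.59). Btbd35f28 (0.73 and 0.75), Slc9b1 (1.19 and 1.08) and Zfp867 (0.80 and 0.64) had higher means with vancomycin in colon and ileum, and their differences of 0.02, -0.11 and -0.16 were bounded within -0.83 to 0.60. None of these 4 passed in either tissue alone. Outside the ranking, Reg3g, an antibacterial lectin, had a difference of 0.69 ± 0.64 (limma, adjusted p = 0.846) and Angptl4, an inhibitor of lipoprotein lipase, 0.78 ± 0.57 (0.782), with intervals of -0.68 to 2.06 and -0.45 to 2.0 that reach beyond 1.

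Gene lists placed these genes among others of their kind. Over all named probe sets the median tissue difference was 0.00, 49.4% of differences were negative and 50.6% positive, 0.189% passed and 8.01% had an unadjusted p under 0.05. These shares are the background for the counts of each list. Of the lists, 25 of 35 had no gene past the threshold. Of 19 epithelial genes induced by bacteria, 4 passed as negative (Ceacam10, Nox1, Nos2 and Ubd) and 14 had negative values, with a median of -1.39. Saa1, a serum amyloid A, at -3.74 (adjusted p = 0.0956) and Duoxa2, the maturation factor of dual oxidase, at -3.66 (0.198) were as large and did not pass. Reg3b (0.45), Retnlb (0.95) and Lcn2 (0.99) of the same list were positive and did not pass. Of 18 genes of cytotoxic and intraepithelial lymphocytes, 5 passed (Gzmb, Cd7, Nkg7, Cd244a and Itgae) and 14 had negative values, with a list median of -0.97. At an unadjusted p under 0.05, 10 of the 18 were negative and 1 was positive. None of the 18 was expressed in both tissues by the rule above.

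Every one of 13 genes measured for MHC class I presentation was negative (median -0.72), Tap1 alone passing, and 12 of the 13 were expressed in both tissues. All 12 measured interferon-inducible GTPases of their list were negative (median -1.09), Igtp alone passing. In the MHC class II list 8 of 10 measured genes were negative (median -1.65), H2-Eb1 alone passing. H2-Ab1 (-1.74, limma, adjusted p = 0.0726) and H2-Aa (-1.72, 0.0806) were close to the threshold. Class II genes averaged 11.41 to 11.73 in ilea without antibiotic, 11.22 in the vancomycin ileum numbered 11 and 10.03 and 9.79 in those numbered 13 and 14, and the list median was -2.06 without number 11. The 18 type I interferon-stimulated genes split, 10 negative and 8 positive, with Ifit1bl1 and Zbp1 passing. Their median was -0.14, with -0.43 and 0.03 without the vancomycin ilea numbered 14 and 13 in turn. Irf7, which drives type I interferon, stood at 1.52 (0.69), from -2.15 in the colon and -0.63 in the ileum.

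Goblet cell genes lay on the other side. Of 15, all expressed in both tissues, 14 had a positive difference (median 0.66, and 0.40 without the vancomycin colon numbered 14), and none passed in limma, with 7 at an unadjusted p under 0.05. Their median change was -0.66 in the colon and 0.01 in the ileum. Zg16, a lectin of mucus, read 17.21, 17.26, 16.64 and 17.12 in colons without antibiotic and 15.97, 16.36 and 14.85 with vancomycin, and 17.30 to 17.38 and 17.17 to 17.49 in the ilea. The colonic groups lay apart, the ileal ones overlapped, and the difference of 1.36 ± 0.40 did not pass (adjusted p = 0.32). The enteroendocrine list had a median of 0.70 with 15 of 17 genes positive and Tph1 passing.

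Lists of stromal and follicle cells were positive with none of their genes passing in limma, and they moved with 1 array. Smooth muscle had a median of 0.68, fibroblasts 0.64, endothelial cells 0.65, enteric neurons and glia 0.48 and B cells 0.60. Without the vancomycin ileum numbered 11 these were 0.31, 0.29, 0.24, 0.03 and -0.31. At an unadjusted p under 0.05, 4 fibroblast, 3 endothelial and 2 neuronal or glial genes were positive, and 0 smooth muscle or B cell genes. Other medians moved with 1 array too, enterocyte genes from -0.22 to 0.20 and Paneth cell genes from 0.17 to -0.31 without that ileum. The remaining lists, among them tuft cells, stem cells, fat absorption, cholesterol synthesis, the cell cycle and the circadian clock, had medians between -0.30 and 0.39.

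**Figure D5:**
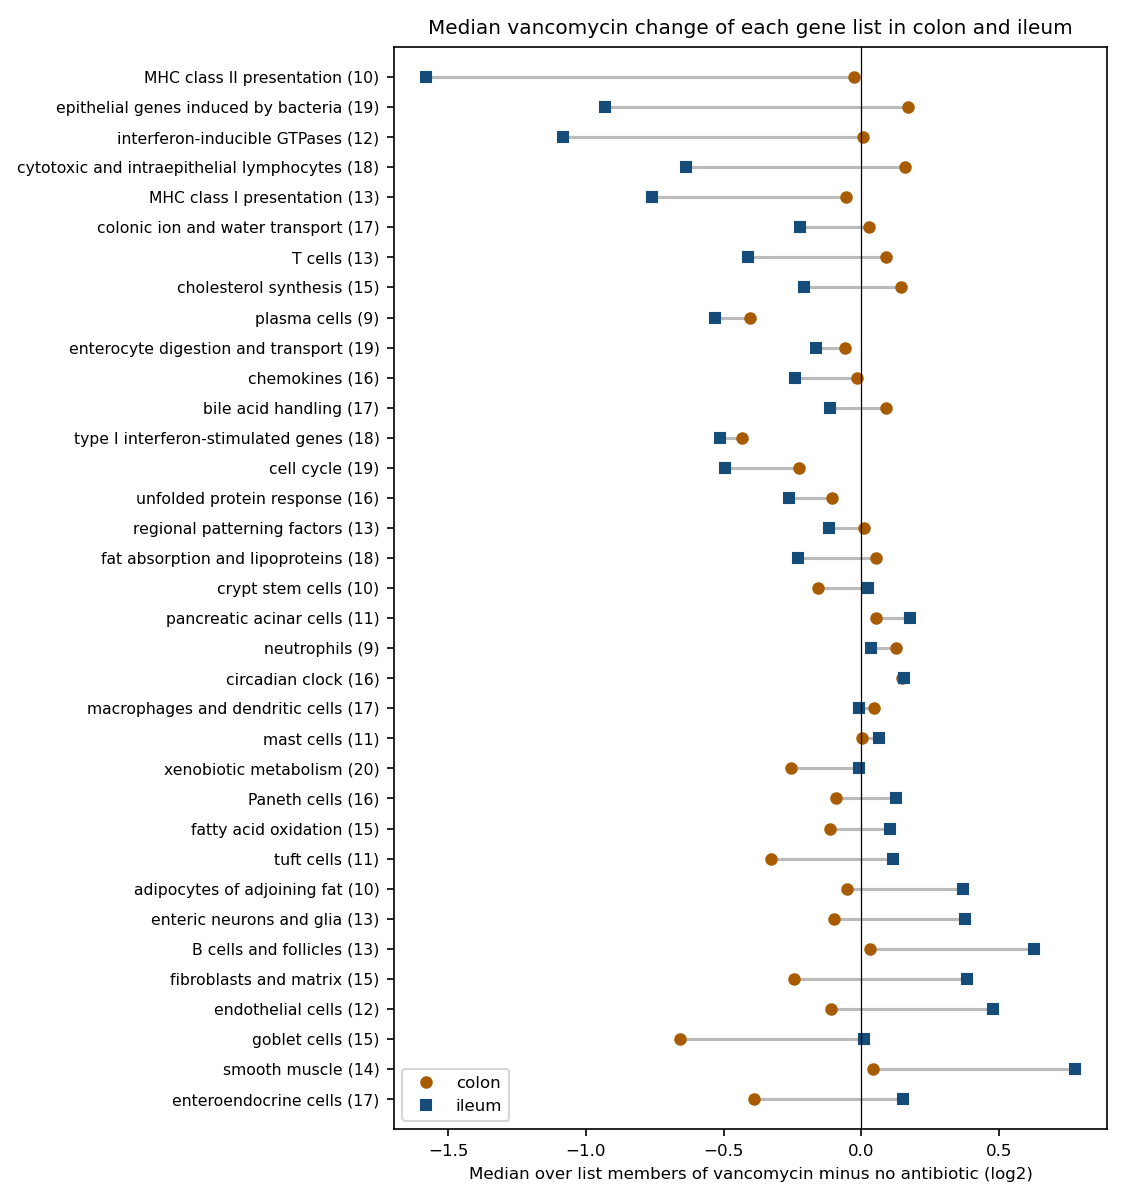
Median vancomycin change (log2, horizontal axis) of each of 35 gene lists in colon (circles) and ileum (squares), ordered by the median tissue difference, with the number of measured genes in brackets. The ileal squares lie far left of the colonic circles for MHC class II, bacteria-induced epithelial genes, GTPases, cytotoxic lymphocytes and MHC class I. The colonic circle lies left for goblet and enteroendocrine cells, and by a similar distance for smooth muscle, B cells, fibroblasts and endothelial cells.

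Each array was left out in turn to see which differences rest on it. Ceacam10, Tap1, U90926, Nos2, Cd7, Ubd, Gml, Nkg7, Barx2 and Cd244a passed in all 13 such fits, and no gene of the 37 changed sign in any. Of the 31 negative differences, 12 were kept without the vancomycin colon numbered 13 or without the ileum without antibiotic numbered 3, 15 and 16 without the ileum and the colon without antibiotic numbered 1, 17 without the vancomycin colon numbered 14 and 18 without the colon numbered 5. Between 19 and 27 were kept without the colons numbered 2, 3 and 11, the ileum numbered 2 and the vancomycin ilea numbered 13 and 14, and all 31 without the vancomycin ileum numbered 11. The positive differences were less steady, none of the 6 being kept without the colon numbered 1, the vancomycin colons numbered 13 or 14 in turn, or the ileum numbered 3. Cd96 passed in 1, Gm12250, Tagln2 and Ly6g6c in 2, and Ifit1bl1, Zbp1, Exoc3l4, Gsdmc, Gsdmc3, Cd248 and Pde8a in 3 of the 13 fits, with adjusted p of up to 0.163. Nox1, Xdh, Igtp, Pnliprp2 and Nudt5 passed in 4, Mcpt1 in 5, Zc3h12a and Fgf15 in 7, and Tph1 and Batf2 in 8. Ly75 and H2-Eb1 passed in 10, Gzmb, Itgae and Apol7e in 11 and Mbl2 in 12.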

How the data were processed

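RNA from whole colon and ileum was measured on 1-colour expression arrays. The deposited values are log2 expression per probe set, which the authors made, per the submitters' processing notes, with Affymetrix Expression Console 1.4.1.46 and RMA, neither role being spelled out there. The array annotation pairs 19572 of 28846 probe sets with 1 gene symbol, and the other 9274 were left out. All 13 arrays entered one limma 3.58.1 model of group means (R 4.3.3, lmFit and eBayes) with Benjamini-Hochberg adjustment over the 19572, and 0 columns of samples went unused. The model was tested on simulated data.

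The members and lists were chosen with earlier results of these data known. Genes were named by rank of the tissue difference within direction and level class, by opposite changes in both tissues, by the smallest p in each list, and as genes that moved alike, with the remaining genes past the threshold and the gene families added after values were seen. Of 561 list entries 509 were measured. Alternatives covered the replicate block, array weights, the spread model, normalization, dim probe sets, class boundaries and each array left out. Label numbers were not taken to pair arrays, since 3 of 6 same-numbered pairs had a correlation of deviations over 0.1, all 3 of vancomycin samples (range -0.02 to 0.24). Promoter windows came from RefSeq (GRCm38.p6).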

Additional observations from a re-analysis of the deposited data

Results flagged for a closer look

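The 37 genes past the threshold are those whose vancomycin effect differed between tissues by the test of the difference itself (limma, all 13 arrays). Among genes expressed in both tissues the negative differences were -4.19 (Ceacam10), -2.89 (Ifit1bl1), -2.69 (Nox1), -2.35 (Zbp1), -2.27 (Tap1), -1.96 (Xdh), -1.87 (Zc3h12a), -1.77 (Ly75), -1.65 (Gsdmc), -1.64 (Gsdmc3) and -1.43 (Mbl2). Among genes low in the colon they were -4.59 (U90926), -4.17 (Fgf15), -3.91 (Gzmb), -3.67 (Nos2), -3.55 (Igtp), -2.96 (Cd7), -2.85 (Gm12250), -2.82 (H2-Eb1), -2.74 (Barx2), -2.35 (Exoc3l4), -2.17 (Mcpt1), -1.96 (Nkg7), -1.92 (Cd244a), -1.80 (Batf2), -1.76 (Itgae), -1.38 (Cd96), -1.36 (Apol7e) and -1.08 (Nudt5). Among genes low in both they were -4.11 (Ubd) and -2.28 (Gml). The positive differences were 2.74 (Pnliprp2), 2.25 (Cd248), 2.10 (Tph1), 1.86 (Pde8a), 1.71 (Ly6g6c) and 1.17 (Tagln2).

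Among 60 named genes, 2 had an array far from the rest of the 4 colons without antibiotic. Nudt5 read 8.04 in the colon numbered 2, above 7.76 to 7.79 in the others. Gm12250 read 7.31 in the colon numbered 1, above 6.68 to 6.72. Chance alone marks about 1 in 20 such groups.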

How the results depend on the processing

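No gene of the 37 changed sign under any of the 13 fits with 1 array left out or the 10 other alternatives. Of them 10 passed whichever array was removed, 17 under all the other alternatives and 9 throughout. The replicate block, with the label number as a fixed term, gave 23 calls (21 of the 37), 18 negative, 9 expressed in both and 10 low in the colon. Those not called in it were Ifit1bl1, Zbp1, Gzmb, Pde8a, Tagln2, Tph1, H2-Eb1, Cd244a, Nudt5, Exoc3l4, Apol7e, Gsdmc3, Gsdmc, Cd96, Batf2 and Mbl2, with adjusted p of 0.051 to 0.149. As a random block (consensus correlation 0.0975) it gave 43, of which 4 were low in both. Array weights, which rate the arrays by their fit, gave 191 calls, 119 negative and 72 positive, with 107, 42, 15 and 27 in the classes expressed in both, low in colon, low in ileum and low in both, and 1012 ileal and 38 colonic calls. Leaving out both arrays numbered 11, chosen after seeing the data, gave 157 calls, 88 negative and 69 positive, with 94, 37, 13 and 13 in these classes, and 195 ileal and 695 colonic calls. With a separate spread per tissue, 11 were positive, 25 expressed in both and 5 low in both, and the tissues alone gave 20 ileal and 0 colonic calls in limma (2945 colonic at an unadjusted p under 0.05). Centring gave 1 call low in the ileum and 0 colonic (2965 unadjusted), and quantile normalization within tissue 1 low in the ileum. A trended robust spread, and classes from all arrays, each gave 4 calls low in both. Without the dimmest 33% of probe sets, 0 calls were low in both, 1 was colonic and 8578 intervals lay within 1, fewer probe sets being tested. With low set at the 33rd percentile, the classes held 28, 9, 0 and 0 calls, and at the 67th, 8 were expressed in both, 4 low in the ileum and 10 low in both.

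With 1 array left out, calls ran from 12 to 84, negative 12 to 64, positive 0 to 20, expressed in both 3 to 41, low in colon 7 to 32, low in ileum 0 to 4, low in both 2 to 7, intervals within 1 12751 to 14261, ileal calls 40 to 172 and colonic calls 0 to 217 (1779 to 3993 unadjusted). Of the genes that moved alike, differences near 0 changed sign. Btbd35f28 stood at -0.0667 in the fixed block, -0.196 with array weights, -0.0176 after quantile normalization, -0.0267 after centring and between -0.0667 and 0.122 with 1 array left out. Slc9b1 stood at 0.305 with array weights, 0.0417 without both arrays numbered 11, and between -0.423 and 0.142 with 1 array left out. Bcl3 stood at 0.128 with array weights and between -0.389 and 0.111 with 1 array left out. The cause of these moves was not tested. With 3 or 4 arrays a group, the median interval of a difference is 0.56 either way, so smaller differences are mostly beyond these data.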

Other observations

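Among the 31 genes with a negative difference, the lowest ileal value without antibiotic was in the ileum numbered 2 in 15 genes, numbered 3 in 10 and numbered 1 in 6. The highest ileal value with vancomycin was in the ileum numbered 14 in 17 genes and in those numbered 11 and 13 in 7 each, with 1 tie counted once. Over all 37 genes the gap between ileum and colon narrowed with vancomycin in 22, widened in 5 and changed sign in 10.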
